A study of Mus musculus with 6 samples.

Results

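The expression of 8 genes, most of them best known from epithelia, was compared between activated CD4 T cells with and without Foxo1: Scel, Agr3, Prss23, Muc13, Tmprss13, Aqp3, Bace2 and App. They were picked by gene symbol from the 13564 genes of the deposited normalized table (55487 genes are listed in the count files), on the basis of their own values in this same comparison, so that their difference between genotypes is described without a test. The 3 Foxo1TKO libraries came from CD4-Cre Foxo1 fl/fl mice, in which Cre deletes Foxo1 from the double-positive thymocyte stage on, in CD4 and CD8 T cells alike, and the 3 Foxo1Ctrl libraries from Foxo1 fl/fl mice without Cre. All mice were of the C57BL/6J strain and described as young adults. Naive CD4 T cells were sorted from lymph nodes and 50000 of them by the labels, or a larger number by the study's methods, were stimulated over 4 days by soluble anti-CD3 (0.1 µg per ml) presented by 250000 splenocytes of CD3eKO mice, which lack T cells of their own. The sources used here do not give whether splenocytes were removed ahead of RNA extraction, nor whether replicates came from separate mice, so that p-values measure the spread between these libraries, which may be technical.

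Sciellin (Scel) is a precursor of the cornified envelope of stratified epithelia. Agr3 is a protein disulfide isomerase of ciliated and secretory epithelia, Prss23 a secreted serine protease, Tmprss13 a serine protease anchored in the membrane, Muc13 a membrane mucin of the gut surface and Aqp3 a water and glycerol channel of skin, kidney and gut. App is the amyloid precursor protein and Bace2 an aspartyl protease that cleaves it and other membrane proteins. Foxo1 is a forkhead transcription factor that keeps T cells naive and quiescent and is inactivated by AKT after antigen receptor signalling.

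Most defining markers of epithelial cells were at or near 0 in these libraries. Of 19 such markers, 10 had no more than 3 reads in any library, and Krt5, Krt7, Krt8, Krt14, Krt19, Cldn3 and Prom2 had none at all. Cdh1, the adhesion molecule of epithelial junctions, had 0 reads in the 3 Foxo1TKO libraries and 5, 0 and 2 reads in the Foxo1Ctrl libraries. Epcam, with 26 to 62 reads, was among the 4 markers with enough reads to test. None of the 4 passed the thresholds for a difference given below, at a median log2 fold change of −0.70 (Foxo1TKO over Foxo1Ctrl). Together the epithelial markers summed to 2.62 to 7.33 TPM (transcript abundance corrected for gene length and library size) in Foxo1TKO cells and 6.65 to 11.4 TPM in Foxo1Ctrl cells, against 12478 to 16098 TPM for 13 T cell markers. In Foxo1Ctrl cells Tjp3 stood at a mean of 2.71 TPM, Ap1m2 at 2.33 and Epcam at 2.24, above App at 1.32. Since most of the markers were at or near 0, the 8 genes are called here by their names. Foxo1 itself had a normalized signal of 46.1 to 113 in Foxo1TKO cells and 1507 to 2293 in Foxo1Ctrl cells (log2 fold change −4.45, SE 0.36, adjusted p = 0.000195 by edgeR).

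The libraries held 14783853 to 19675407 counts, and the 13691 genes that reached 10 counts in 3 or more libraries were tested by edgeR's quasi-likelihood test. Of these, 23.0% were called different between genotypes (adjusted p under 0.05 over all tested genes and a fold change over 1.5), 11.1% as higher and 11.8% as lower in Foxo1TKO cells. All 8 genes passed the filter on low counts, each of them through 1 genotype alone.

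**Figure D1:**
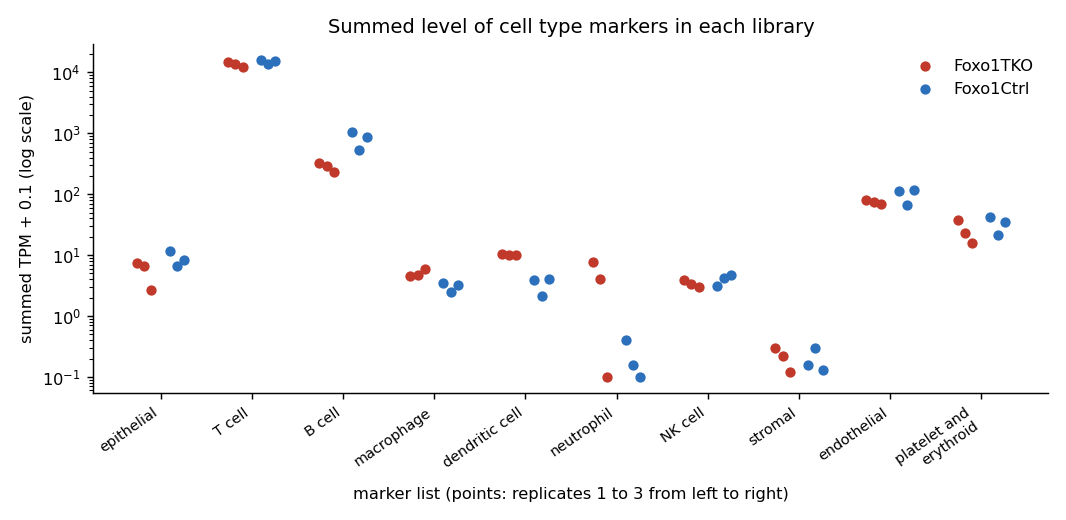
Summed level of the markers of 10 cell types in each library, in TPM plus 0.1 on a log scale, with Foxo1TKO libraries in red and Foxo1Ctrl libraries in blue. T cell markers exceed all other lists, B cell markers are lower in each of the 3 Foxo1TKO libraries, and epithelial markers stay at or below 11.4 TPM.

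The promoter sequences below show what lies upstream of the transcription start in 2 of the genes that were higher and 3 of those that were lower in Foxo1TKO cells. RefSeq windows on GRCm38.p6, reaching from 250 bases before to 50 bases after a start, were held for 6 of the 8 genes, with 13 starts in all, and were compared with all 32851 windows of the same length. The printed stretch ends before the outermost annotated start of each gene and reads along the coding strand. Capitals mark CAGGTG or its reverse complement CACCTG, an E-box bound by Zeb and Snail factors, in Agr3, Aqp3 and App, and TGANTCA, an AP-1 site, in Scel and Muc13.
Scel (chr14:103513091-103513340, plus strand): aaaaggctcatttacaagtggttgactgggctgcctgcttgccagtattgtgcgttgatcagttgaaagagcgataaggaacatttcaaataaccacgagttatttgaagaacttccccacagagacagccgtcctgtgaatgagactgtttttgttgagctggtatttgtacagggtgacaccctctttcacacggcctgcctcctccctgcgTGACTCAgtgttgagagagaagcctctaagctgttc
Agr3 (chr12:35925371-35925619, plus strand): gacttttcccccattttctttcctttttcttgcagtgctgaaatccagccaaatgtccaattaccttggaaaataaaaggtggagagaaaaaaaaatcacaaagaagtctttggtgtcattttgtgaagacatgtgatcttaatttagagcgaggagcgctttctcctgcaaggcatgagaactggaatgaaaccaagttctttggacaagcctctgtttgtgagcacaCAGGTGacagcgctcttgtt
Muc13 (chr16:33793787-33794036, plus strand): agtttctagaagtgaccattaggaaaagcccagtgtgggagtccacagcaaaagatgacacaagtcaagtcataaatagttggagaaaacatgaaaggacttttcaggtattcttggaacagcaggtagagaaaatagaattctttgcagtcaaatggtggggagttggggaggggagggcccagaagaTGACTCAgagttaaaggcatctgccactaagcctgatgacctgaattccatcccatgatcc
Aqp3 (chr4:41098184-41098433, minus strand): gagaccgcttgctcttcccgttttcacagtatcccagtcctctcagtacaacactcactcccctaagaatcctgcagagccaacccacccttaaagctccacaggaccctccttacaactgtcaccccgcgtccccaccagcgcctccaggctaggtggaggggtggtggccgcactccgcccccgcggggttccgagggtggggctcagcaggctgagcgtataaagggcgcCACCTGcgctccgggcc
App (chr16:85173767-85173957, minus strand): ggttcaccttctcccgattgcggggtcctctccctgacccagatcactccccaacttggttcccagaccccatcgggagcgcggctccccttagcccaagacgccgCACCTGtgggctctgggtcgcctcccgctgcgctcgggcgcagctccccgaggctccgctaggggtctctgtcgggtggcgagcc

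None of the 13 windows held the forkhead letters GTAAACA or the insulin response letters CAAAACAA on either strand, which 3.65% and 2.51% of all windows hold. That says only that these letters were not found in these windows. The E-box was found in at least 1 window of 5 of the 6 genes (Scel, where it lies beyond the printed stretch, Agr3, Prss23, Aqp3 and App), beside 22.6% of the 27025 genes in the table. Of the 9 member windows with it, 5 belong to Prss23, and these overlap each other in part, and 20.2% of all windows hold it. The AP-1 letters were found in Scel, Prss23 and Muc13, beside 8.97% of genes and 7.81% of all windows. The genes differed widely in CpG content. The App window held 30 CpG dinucleotides and that of Aqp3 21, whereas the Scel window held 9, that of Agr3 3 and the outer Muc13 window 0, beside a median of 7 over all windows. The 7 Prss23 starts ran from 4 to 41. High and low CpG windows thus occurred in both directions of change.

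Scel, Agr3 and Prss23 were expressed in Foxo1TKO cells and nearly silent in Foxo1Ctrl cells. Scel (ENSMUSG00000022123, GRCm38 chromosome 14, 103513342 to 103612797, plus strand) had a deposited normalized signal of 916, 1023 and 1123 in Foxo1TKO replicates 1 to 3 and of 0, 0 and 3.80 in the Foxo1Ctrl replicates. The genotypes did not overlap, and the only Foxo1Ctrl reads were 4 in replicate 3. From summed counts scaled to library size, Scel was 699-fold higher in Foxo1TKO cells (95% exact counting interval 273 to 2566), with a fitted log2 fold change of 8.72 (SE 0.58). Intervals of this kind, here and in what follows, cover counting error only. By fitted log2 fold change Scel ranked 3 among all 13691 tested genes.

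Agr3 (ENSMUSG00000036231, chromosome 12, 35925620 to 35949736, plus strand) had a signal of 324, 884 and 1083 in Foxo1TKO cells and of 1.17, 1.14 and 4.77 in Foxo1Ctrl cells. Replicate 1 of Foxo1TKO stood well below the other two, yet far above each Foxo1Ctrl library. The summed counts gave a 292-fold difference (interval 142 to 727, log2 fold change 7.78, SE 0.70). That value rested on Foxo1Ctrl replicate 3, which held 5 of the 7 Foxo1Ctrl reads. Without that library the fold was 638 (interval 176 to 5271).

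Prss23 (ENSMUSG00000039405, chromosome 7, 89507783 to 89527187, minus strand) had a signal of 156, 145 and 162 in Foxo1TKO cells, from 232, 215 and 216 reads. It had no read in any Foxo1Ctrl library. Against a floor of 3 counts over that group, Prss23 was at least 186-fold higher in Foxo1TKO cells. With 1 of the silent libraries left out this bound was 116-fold at the lowest. Its 3 Foxo1TKO libraries were close to each other, with a coefficient of variation of 11.2% on the CPM scale (counts scaled to library size).

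Muc13, Tmprss13, Aqp3, Bace2 and App showed the opposite picture. Muc13 (ENSMUSG00000022824, chromosome 16, 33794037 to 33819934, plus strand) had 0 reads in each Foxo1TKO library and a signal of 240, 151 and 272 in Foxo1Ctrl replicates 1 to 3. It was therefore at least 246-fold lower in Foxo1TKO cells, again against 3 counts over the group, and at least 156-fold lower at the lowest with 1 silent library left out. Tmprss13 (ENSMUSG00000037129, chromosome 9, 45319100 to 45347581, plus strand) had a signal of 0.854, 0 and 0 in Foxo1TKO cells and of 207, 182 and 118 in Foxo1Ctrl cells. A single Foxo1TKO read, in replicate 1, was set against 459 Foxo1Ctrl reads, a 544-fold difference whose counting interval ran from 97.2 to 21540.5. Without that library the other Foxo1TKO libraries were at 0 and the difference was at least 115-fold, and without Foxo1TKO replicate 2 it was 354-fold.

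Aqp3 (ENSMUSG00000028435, chromosome 4, 41092722 to 41098183, minus strand) had a signal of 0.710, 0 and 0 in Foxo1TKO cells and of 160, 20.9 and 59.97 in Foxo1Ctrl cells. It was the least even of the 8 genes between replicates by CPM, with a 7.77-fold range of CPM over the Foxo1Ctrl libraries, but its genotypes did not overlap. With 1 Foxo1TKO read against 262, the fold was 311 (interval 55.3 to 12315). Without Foxo1Ctrl replicate 1, which held 164 of those reads, it was 167 (interval 29.3 to 6675). Without Foxo1TKO replicate 1, the library with the single read, it was at least 65.9, and without Foxo1TKO replicate 2 it was 202.

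Bace2 (ENSMUSG00000040605, chromosome 16, 97356742 to 97442936, plus strand) had 0 reads in each Foxo1TKO library and a signal of 150, 66.3 and 226 in Foxo1Ctrl cells, from 110, 80 and 171 reads. It was at least 143-fold lower in Foxo1TKO cells, and at least 90.8-fold lower at the lowest with 1 silent library left out. App (ENSMUSG00000022892, chromosome 16, 84949685 to 85173766, minus strand), the substrate, had a signal of 1.41, 1.42 and 2.13 in Foxo1TKO cells and of 76.5, 45.4 and 27.3 in Foxo1Ctrl cells. Reads remained in all 3 Foxo1TKO libraries, 1, 2 and 3 of them. App was 24.7-fold lower (interval 11.03 to 68.6, log2 fold change −4.04, SE 0.58), and its interval lay below the folds and bounds of the other 7 genes, though not below the interval of Aqp3. Both genes of the amyloid pathway were thus higher in cells with Foxo1.

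**Figure D2:**
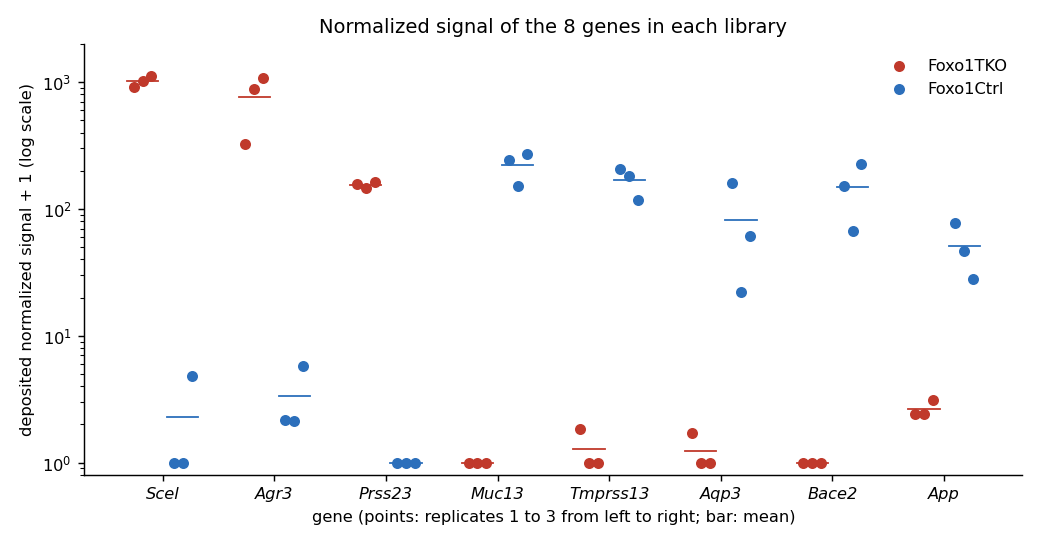
Deposited normalized signal plus 1 of the 8 genes in each library on a log scale, with Foxo1TKO in red, Foxo1Ctrl in blue, replicates 1 to 3 from left to right and a bar at the mean. For each gene the libraries of the genotypes are apart, and Scel and Prss23 spread least within the genotype that expresses them.

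Separation of the genotypes alone is common in these data. The 3 libraries of each genotype did not overlap in any of the 8 genes, but the same held for 21.5% of all tested genes in the direction of higher Foxo1TKO values and for 21.2% in the other. A stricter pattern is rarer. With at most 3 reads in each library of 1 genotype and at least 10 in each library of the other, 0.906% of tested genes (124) were on in Foxo1TKO cells only and 0.467% (64) in Foxo1Ctrl cells only. Prss23 met it in the first direction and Muc13, Tmprss13, Aqp3, Bace2 and App in the second. Scel and Agr3 missed it through the 4 and 5 reads they had in Foxo1Ctrl replicate 3. These counts describe how the genes were chosen and are no evidence about them.

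**Figure D3:**
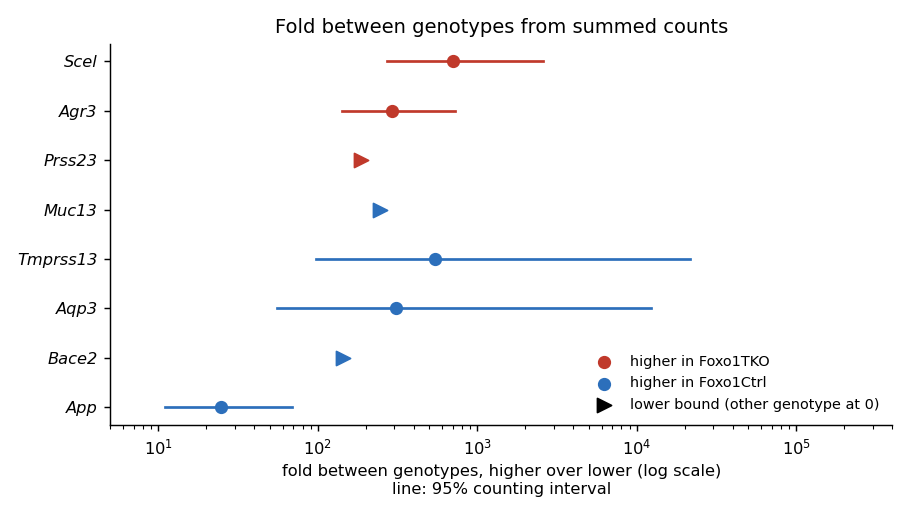
Fold between genotypes from summed counts, higher over lower, on a log scale, in red for genes higher in Foxo1TKO and in blue for genes higher in Foxo1Ctrl. Lines are 95% exact counting intervals and triangles are lower bounds for the 3 genes with no read in the other genotype. App has the smallest fold, 24.7, and the intervals of Tmprss13 and Aqp3, which rest on 1 read, are the widest.

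The genes that were on in Foxo1TKO cells were also the more abundant ones. On the TPM scale Agr3 reached 75.6 ± 35.4 (mean ± SD, n = 3) in Foxo1TKO cells, Scel 30.1 ± 0.921 and Prss23 9.14 ± 0.741, and the libraries of these 3 genes did not overlap with each other. These levels exceeded those of 84.9%, 70.6% and 49.0% of tested genes. In Foxo1Ctrl cells Muc13 stood at 5.27 ± 1.97 TPM, Bace2 at 4.76 ± 2.88, Aqp3 at 4.12 ± 3.82 and Tmprss13 at 3.55 ± 1.02, and the libraries of these 4 overlapped. App was lowest at 1.32 ± 0.731 TPM, above 17.6% of tested genes, and its highest library (2.15) lay below the lowest of Muc13 (3.05) and Tmprss13 (2.65) but within the range of Bace2 and Aqp3.

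Replicates of the expressing genotype varied by very different amounts. The coefficient of variation of CPM was 11.4% for Scel and 11.2% for Prss23, below the median of genes with an abundance within 2-fold of theirs (13.4% and 19.5%). Agr3, at 52.2%, and Aqp3, at 89.5%, were far above such genes (13.9% and 24.3%). Muc13, Tmprss13, Bace2 and App lay between 26.9% and 36.1%, against medians of 21.5% to 27.8%.

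The transcripts behind each gene were read from the mean transcript length that RSEM gives per gene and library, set against the lengths of the annotated transcripts. Agr3 (826 bases), Tmprss13 (3245) and Aqp3 (1765) equalled the length of 1 protein-coding transcript in each library of the expressing genotype. Scel lay between its 2424 and 2443 base transcripts, with an implied share of the longer one of 24.6% to 31.4%. Muc13 lay between 2942 and 2969 bases, with the longer form at 0% to 19.6%. Bace2 was different. Its annotated transcripts are 1 full-length form of 7646 bases and 3 short ones of 806, 746 and 271 bases, and its mean length was 1964, 3056 and 1663 bases in Foxo1Ctrl replicates 1 to 3. Whatever the mix of short forms, the full-length transcript then made up between 16.9% and 23.0% of the estimated Bace2 molecules in replicate 1, between 32.9% and 37.8% in replicate 2 and between 12.5% and 18.9% in replicate 3. Most of the estimated molecules were therefore assigned to short forms, which are annotated as subject to nonsense-mediated decay, as a retained intron and as a short coding form. These are shares of molecules and not of reads, since a longer transcript gives more reads per molecule. App ran from 2247 to 3166 bases in Foxo1Ctrl cells. The single App read of Foxo1TKO replicate 1 gave a length of 1655 bases and the 3 reads of replicate 3 gave 3829, each the exact length of a transcript annotated as a retained intron.

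This matters for the normalized signal, which the study corrected for length. The ratio of signal to CPM of Scel differed 1.03-fold at most between Foxo1TKO libraries, while that of App differed 1.45-fold and that of Bace2 1.88-fold between Foxo1Ctrl libraries. For Bace2 the spread of 66.3 to 226 in signal corresponded to 5.19 to 9.39 CPM. The absence of Bace2 reads from Foxo1TKO cells does not depend on it.

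Most markers of B cells, which the added splenocytes can bring, were also lower in Foxo1TKO cells. Their part in the 5 genes that were lower there was not tested. Of 12 B cell markers 11 were tested and 6 were called lower, none higher, beside 11.8% and 11.1% of all tested genes. Their median log2 fold change was −1.39, beside 0.01 over all tested genes. Their summed level was 228 to 324 TPM in Foxo1TKO libraries and 528 to 1052 TPM in Foxo1Ctrl libraries. Ms4a1, which encodes CD20, had 19, 36 and 23 reads against 93, 105 and 116 (log2 fold change −2.20, adjusted p = 0.00234 by edgeR), and Cd79b, a subunit of the B cell receptor, fell by 1.92 on the log2 scale (adjusted p = 0.00283). Cd22, an inhibitory B cell receptor, fell by 1.62 (adjusted p = 0.0386), a call lost in 9 of 14 alternatives. Ighd and Cr2 went the other way and were not called (log2 fold changes 0.17 and 0.19, adjusted p = 0.679 and 0.789 by edgeR). Of the B cell marker reads, 4937 to 7514 per Foxo1TKO library, 4555 to 7141 were of the immunoglobulin gene Ighm. In bulk RNA fewer cells of a type and less RNA per cell cannot be told apart.

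Macrophage markers summed to 4.45 to 5.84 TPM in Foxo1TKO cells and 2.41 to 3.40 TPM in Foxo1Ctrl cells, and dendritic cell markers to 10 to 10.45 TPM and 2.01 to 3.97 TPM. Both sums were thus higher in each Foxo1TKO library, but in these libraries each sum came mostly from 1 gene. Itgax had a mean of 7.12 TPM in Foxo1TKO cells and 0.15 TPM in Foxo1Ctrl cells. Cd68, a macrophage marker, had 4.46 and 2.56 TPM. The part of such cells in the level of Scel, Agr3 and Prss23 was not tested. The macrophage markers C1qa, C1qc and Mertk had 0 reads in each library. Lyz2 had 2, 1 and 16 reads in Foxo1TKO cells and 0, 0 and 3 in Foxo1Ctrl cells, and Mrc1 had 17 reads in Foxo1Ctrl replicate 3 alone. Stromal markers summed to at most 0.20 TPM, with Col3a1 and Dcn at 0 reads in each library. Of 7 endothelial markers, Cdh5, Kdr and Tek had 0 reads, while Pecam1, which T cells also express, fell by 0.68 on the log2 scale (adjusted p = 0.0198 by edgeR), a call lost in 5 of 14 alternatives. NK cell markers summed to 2.93 to 4.55 TPM, and platelet and erythroid markers to 15.5 to 41.9 TPM, with none called. Neutrophil markers summed to 7.53, 4.01 and 0 TPM in Foxo1TKO replicates 1 to 3 and to at most 0.31 TPM in Foxo1Ctrl cells, and their part was likewise not tested. Among 8 dendritic cell markers only the integrin gene Itgax was called (414, 469 and 452 reads against 1, 0 and 1). Of the 13 T cell markers 2 were called, both lower, beside 11.8% of all tested genes called lower. Cd28 fell by 1.43 and Trbc2 by 0.67 (adjusted p = 0.00119 and 0.0148 by edgeR), the latter call lost in 3 of 14 alternatives.

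The relatives and partners of the 8 genes were taken from lists of known family and pathway members. Their values did not enter the rule that picked the 8 genes, but the lists were chosen with earlier results of these data known. Of 26 genes of amyloid precursor processing, 22 were tested, 5 were called lower and none higher in Foxo1TKO cells. Over all tested genes 11.8% were called lower and 11.1% higher. The median log2 fold change of the list was −0.42. Bace1, the principal beta-secretase, had 216, 248 and 230 reads in Foxo1TKO cells and 385, 288 and 366 in Foxo1Ctrl cells, and fell by 0.82 (SE 0.22, adjusted p = 0.0286 by edgeR). Sorl1, a sorting receptor for App, fell by 0.81 (adjusted p = 0.0111), and so did Apbb1ip, an adaptor of integrin activation (adjusted p = 0.0180). The largest log2 fold change on the list, −2.19 for Apbb1, an adaptor that binds App, was not called (38, 14 and 2 reads against 113, 34 and 56, SE 0.80, adjusted p = 0.0770). Leaving out single libraries ended the call in 4 of 6 cases for Bace1 and Apbb1ip and in 1 of 6 for Sorl1.

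Adam10, the alpha-secretase, was expressed in both genotypes and had a log2 fold change of −0.51 (adjusted p = 0.0286), short of the 1.5-fold threshold. Aplp2, a paralog of App, had 1194, 723 and 492 reads in Foxo1TKO cells and 1411, 794 and 1698 in Foxo1Ctrl cells. Its log2 fold change of −0.96 (SE 0.31, adjusted p = 0.0605) missed the threshold and passed it in 6 of 14 alternatives. Bace1 and Aplp2 thus kept 216 reads or more in the libraries where Bace2 had none and App had 1 to 3.

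**Figure D4:**
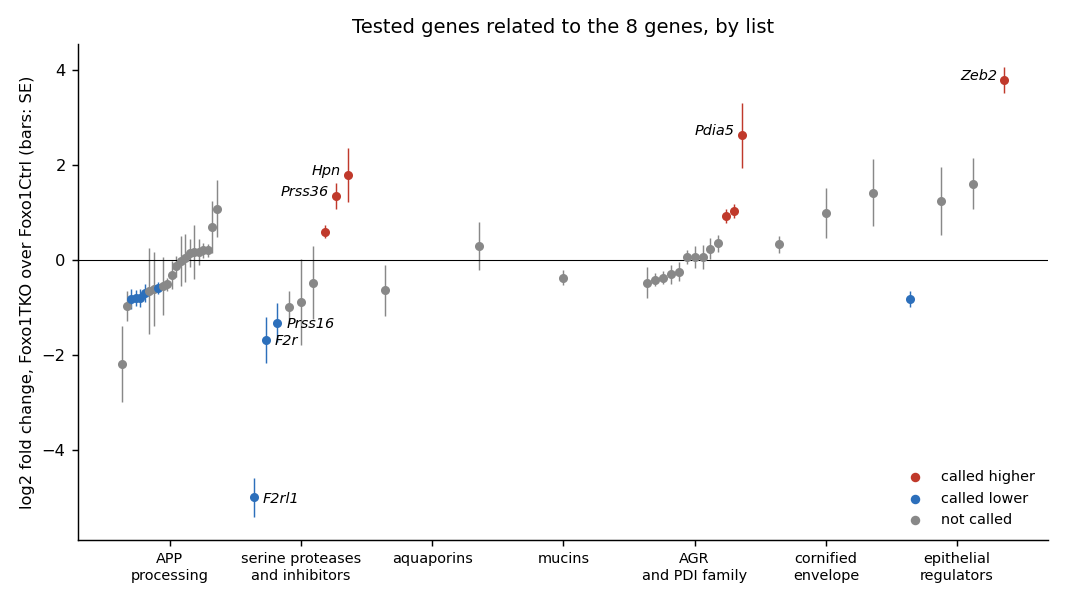
Log2 fold change, Foxo1TKO over Foxo1Ctrl, with its SE, for each tested gene of the 7 lists related to the 8 genes, in red where called higher, in blue where called lower and in grey where not called. F2rl1 at −4.996 and Zeb2 at 3.80 lie farthest from 0, and genes of amyloid precursor processing lie mostly within 1 of it.

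Among 27 serine proteases, their inhibitors and their receptors, 9 were tested. Of these, 3 were called higher and 3 lower, beside 11.1% and 11.8% of all tested genes. F2rl1, a receptor activated by trypsin-like serine proteases, had 35, 32 and 17 reads in Foxo1TKO cells and 890, 391 and 1057 in Foxo1Ctrl cells. It fell by 4.996 on the log2 scale (SE 0.41, adjusted p = 0.00021 by edgeR), the largest change on the list and a call kept in 14 of 14 alternatives. F2r, the thrombin receptor, fell by 1.68 (adjusted p = 0.0395) and Prss16, a thymic protease, by 1.32 (adjusted p = 0.0492). Higher values were found for Hpn, a membrane protease (log2 fold change 1.79, adjusted p = 0.0398), Prss36 (1.34, adjusted p = 0.0105) and Spint2, an inhibitor of such proteases (0.59, adjusted p = 0.0161). The calls of F2r, Prss16, Hpn and Spint2 were lost in 4 to 6 of 14 alternatives and that of Prss36 in none.

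Of the 27 genes, 9 had 0 reads in each library, among them Tmprss2, Prss8 and Prss22. Spint1, the inhibitor closest to Spint2, had 5, 2 and 0 reads in Foxo1TKO cells and none in Foxo1Ctrl cells, too few to test. Tmprss3 had 30, 8 and 24 reads against 2, 4 and 4 and was likewise untested.

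Of 11 aquaporins other than Aqp3, 7 had 0 reads in each library. Aqp9, with 30 to 168 reads, and Aqp11, with 9 to 35, were tested and not called (log2 fold changes 0.29 and −0.64, adjusted p = 0.718 and 0.414 by edgeR). Of 14 mucins and sialomucins 10 had no more than 3 reads in any library. Muc2, the secreted gut mucin, had 0 reads in Foxo1TKO cells and 13, 13 and 6 in Foxo1Ctrl cells, below the filter. Cd164, a sialomucin of blood cells, was the 1 tested and was not called (−0.37, adjusted p = 0.124).

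In the disulfide isomerase family, to which Agr3 belongs, 13 of 15 genes were tested and 3 were called higher, beside 11.1% of all tested genes, and none lower. Pdia5 had 27, 58 and 37 reads against 3, 1 and 11 (log2 fold change 2.62, SE 0.68, adjusted p = 0.0201 by edgeR), a call lost in 2 of 14 alternatives. Pdia4 and Pdia6, abundant chaperones of the endoplasmic reticulum, rose by 1.03 and 0.92 (adjusted p = 0.00209 and 0.00431), calls kept in 14 of 14. The median of the family was 0.06. Agr2, the paralog next to Agr3 in sequence and on the chromosome, had 2 reads in 1 Foxo1TKO library and none elsewhere. Of 18 cornified envelope genes found in the files, 11 had 0 reads in each library, including involucrin (Ivl), loricrin (Lor) and filaggrin (Flg), the classical partners of Scel. The 3 that were tested, Zfp185, Cstb and Jup, were not called, at a median log2 fold change of 0.996 (Zfp185 1.41, adjusted p = 0.159).

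Transcription factors and splicing factors that set the epithelial state had few reads in most cases. Of 19 such regulators 11 had no more than 3 reads in any library and 4 were tested. Zeb2, a repressor of epithelial genes that also acts in effector T cells, had 738, 747 and 518 reads in Foxo1TKO cells and 27, 52 and 39 in Foxo1Ctrl cells, and rose by 3.80 on the log2 scale (SE 0.27, adjusted p = 0.000128 by edgeR). Its paralog Zeb1 fell by 0.82 (SE 0.17, adjusted p = 0.00998), a call lost without Foxo1TKO replicate 2 (adjusted p = 0.0563, range over the alternatives 0.000322 to 0.0563). Esrp1, an epithelial splicing factor, had 0, 3 and 1 reads in Foxo1TKO cells and 0 in Foxo1Ctrl cells. Elf3, Ehf, Grhl3 and Trp63, activators of epithelial genes, had 0 reads in each library. The pair of Zeb genes thus moved in opposite directions.

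The surroundings of the 8 genes on the chromosome were examined next. Of 51 tested protein-coding genes within 500 kb, 10 were called (19.6%, beside 23.0% of all tested genes). Of these 10, 8 changed in the direction of the gene they lie near. Over all tested genes 11.1% were called higher and 11.8% lower, and agreement in direction was not tested. The median absolute log2 fold change of the 51 genes was 0.46, as over all tested genes. Among the nearest tested gene on each side, 5 of 16 were called. Me3, a mitochondrial malic enzyme 105 kb from Prss23, had 49, 35 and 53 reads against 2, 3 and 2 (log2 fold change 3.62, adjusted p = 0.00121 by edgeR). Mx1, an interferon-induced GTPase 4.10 kb beyond Bace2, had 15, 13 and 17 reads against 51, 54 and 65 (−2.07, adjusted p = 0.00323), and Igsf5, 935 kb before Bace2, had 2, 3 and 0 against 20, 28 and 21 (−3.39, adjusted p = 0.00508). The nearest tested gene on each side of Bace2 was thus lower in Foxo1TKO cells, as Bace2 was. Prdm15 and C2cd2, 349 and 412 kb after Bace2 and so nearer than Igsf5, were not called (log2 fold changes 0.70 and 0.01).

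Tspan13, 64.8 kb after Agr3, rose by 1.32 (adjusted p = 0.00312 by edgeR), while Ahr on the other side was not called (1.08, adjusted p = 0.160). Heg1, 22.5 kb before Muc13, fell by 0.61 (adjusted p = 0.0329), a call lost in 7 of 14 alternatives. The other neighbours were not called: Mycbp2 and Slain1 beside Scel, Tmem135 beside Prss23, Umps beside Muc13, Il10ra and Cep164 beside Tmprss13, Nfx1 and Nol6 beside Aqp3, and Gabpa and N6amt1 beside App. Their log2 fold changes ran from −0.63 to 1.20. Il10ra, a receptor chain for interleukin-10, was nearest to a call (1.20, adjusted p = 0.0526) and passed in 6 of 14 alternatives.

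**Figure D5:**
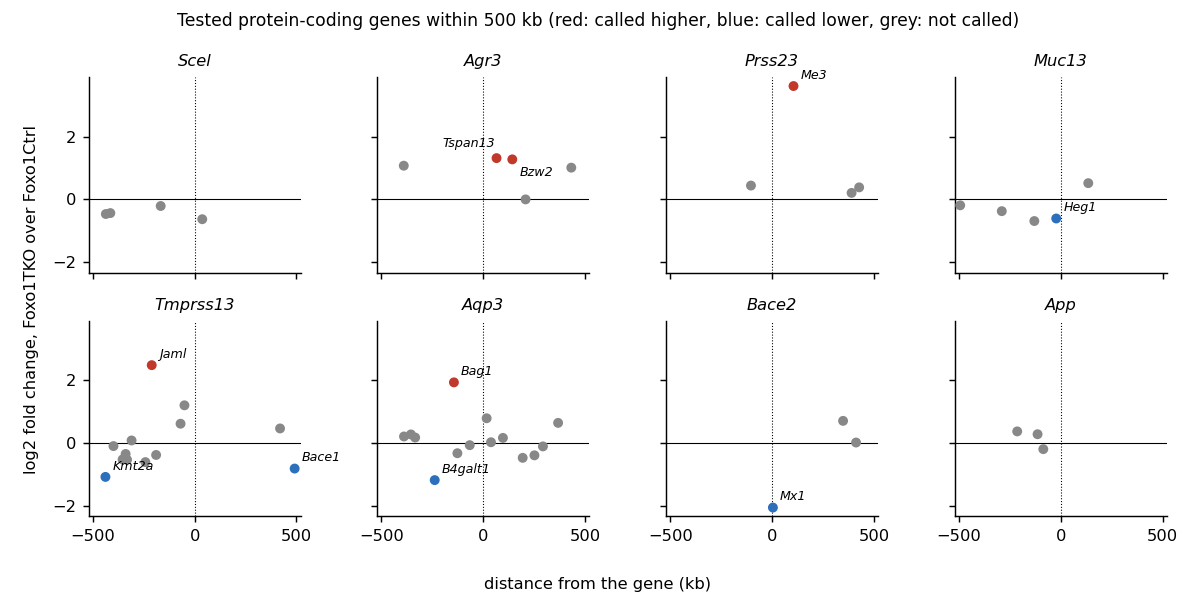
Log2 fold change, Foxo1TKO over Foxo1Ctrl, of tested protein-coding genes within 500 kb of each of the 8 genes against their distance in kb, negative before and positive after the gene, in red where called higher, in blue where called lower and in grey where not called. Of 51 genes 10 are called, and Me3 beside Prss23 at 3.62 is the farthest from 0.

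Genes annotated over the same bases as these genes carried few reads, with 1 exception at Muc13. The antisense genes with exons over those of Tmprss13 and App had 0 reads in each library. Prss23os, antisense to Prss23, had 3, 0 and 4 reads in Foxo1TKO cells and 0 in Foxo1Ctrl cells. Gm15657, antisense to Muc13, had 6, 15 and 8 reads in Foxo1TKO cells and 35, 45 and 47 in Foxo1Ctrl cells (log2 fold change −2.25, adjusted p = 0.00633 by edgeR). Strandedness of the counting is not given in the sources used here, so reads where Muc13 and Gm15657 overlap cannot be told apart.

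Lastly, the 2 tested genes whose pattern over the 6 libraries was most like each of the 8 were listed by Pearson's r of log2(CPM + 1), as a description. All r lay between 0.9963 and 0.9997, and the genotype difference by which the 8 genes were picked enters each of them. Muc13 and Bace2 were each among the other's nearest (r = 0.9996). In Foxo1Ctrl cells both were lowest in replicate 2 and highest in replicate 3. Scml4 completed the pair for Muc13 and Tubb2a for Bace2. Scel was closest to Txn2 and Crhbp, Agr3 to Chek2 and Gm3667, and Prss23 to Itgax and Zcchc12. Tmprss13 was closest to Clcn3 and Gm32633, Aqp3 to Trbv31 and Tnfrsf22, and App to Chic1 and Gcm2. High r did not need a similar size of change, as Txn2, with 2056 to 2592 reads in Foxo1Ctrl cells, had a log2 fold change of 0.87.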

How the data were processed

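RNA of 3 Foxo1TKO and 3 Foxo1Ctrl cultures was sequenced. Genotype and replicate were taken from the labels. The authors mapped reads to GRCm38 (Ensembl release 101) using STAR 2.7.6a and counted them using RSEM 1.3.1, where a read could map to as many as 10 loci. They deposited expected counts (RSEM's estimated counts), TPM and mean transcript lengths per gene and library, and a table of normalized signal, in which counts were divided by DESeq2 size factors and corrected for length. A read shared by several genes is split, so counts of paralogs are estimates.

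Expected counts were rounded here to whole numbers and tested with edgeR 4.0.16 in R 4.3.3 (TMM, glmQLFit and glmQLFTest, prior count 1, genotype as the only term) on the 13691 genes that reached 10 counts in 3 or more libraries, with Benjamini-Hochberg adjustment over all of them. This script was tested on simulated data. Calls needed an adjusted p below 0.05 together with more than a 1.5-fold change. The smallest two-sided p of an exact permutation test with 3 libraries per genotype is 0.1. Replicates of a genotype correlated at r = 0.969 to 0.990 (log2 CPM), and none was a copy of another. Folds of the 8 genes are ratios of summed counts over TMM-scaled library sizes, with Clopper-Pearson intervals (scipy 1.17.1) or, where a genotype had no read, a bound against 3 counts over the group. Positions and transcripts come from GENCODE M21 (GRCm38), promoters from RefSeq.

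Named are the 8 genes, Foxo1, the 3 called genes with the largest change in each direction from each related list, relatives set by name (1 is not reported here), the nearest tested gene on each side and the 2 most similar genes. Genes named beyond that rule, such as Muc2, Tmprss3, Apbb1 and markers at 0, were chosen after their values were seen. The 8 genes and the lists were chosen with earlier results of these data known. Alternatives were DESeq2 1.42.0, limma-voom and limma (3.58.1) on log2(signal + 1), other scalings, filters and prior counts, the replicate number as a block, and each library left out. FPKM columns were not used here.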

Additional observations from a re-analysis of the deposited data

How the results depend on the processing

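None of the 112 alternative values of the 8 genes' log2 fold changes reversed, but their size depends on the prior count and the pseudocount, since 1 genotype is at or near 0. They ran from 7.33 to 9.996 for Scel, 6.69 to 8.47 for Agr3, 5.40 to 10.7 for Prss23, −10.8 to −5.52 for Muc13, −9.003 to −5.05 for Tmprss13, −8.19 to −4.28 for Aqp3, −10.02 to −4.75 for Bace2 and −4.63 to −2.90 for App. On the deposited normalized signal the genotypes likewise did not overlap in any of the 8 genes, nor in 41.8% of all genes in that table, beside 42.7% on CPM. The count of called genes was 3144, and 2792 to 3694 under other tests, scalings and filters. It ran from 1854 to 3321 with 1 library left out, with 1854 without Foxo1TKO replicate 2 and 2031 without Foxo1Ctrl replicate 1, where each call rests on fewer samples. Of 560 alternative values of 40 named related genes, 57 lost a call, 15 gained one and 0 reversed.

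Same-numbered samples had deviations from their genotype means that correlated at 0.59, 0.34 and −0.27. Values from so few libraries cannot settle whether the numbers pair the samples. With the replicate number as a block 3318 genes were called. With 3 libraries per genotype, an r or a coefficient of variation is imprecise, and a count of 0 over the group allows up to 3 reads.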
